A study of Mus musculus with 47 samples.

Results

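Ifit1, Ifit3, Irf7, Isg15, Bst2 and Oasl2, which are genes of the interferon response, and B2m, H2-D1 and H2-K1, which encode MHC class I, were followed through brainstem and hippocampus of mice. These 9 genes were listed by symbol and found by Ensembl identifier in both count tables, among 33138 mouse gene rows in brainstem and 31750 in hippocampus. The 9 passed the filter on low counts in each region (mean count of at least 10), along with 17108 tested genes in all in brainstem and 16787 in hippocampus. Wild-type (WT) mice and transgenic (TG) mice carrying a human transgene under the Thy1 promoter, which is active mainly in neurons, received either a standard diet (SD) or a high fat diet (HFD). All groups were male C57BL/6 mice aged 12 months, and the diets began in week 5 of life. TG mice came from a homozygous colony and WT mice from a parallel colony of the same outcross, so colony and transgene cannot be told apart. RNA was taken from the posterior medulla, here called brainstem, and from the whole hippocampus. Each of the 4 groups (WT_SD, WT_HFD, TG_SD and TG_HFD) had 6 libraries per region, except WT_SD in brainstem with 5.

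Type I interferons act on the receptor Ifnar, which signals through the kinases Jak1 and Tyk2 and a complex that includes Irf9 to a short DNA element in the promoters of interferon-stimulated genes. Irf7 is a transcription factor of that response and amplifies interferon production. Ifit1 and Ifit3 are antiviral proteins of a family that recognises foreign RNA, Isg15 is a ubiquitin-like modifier, Bst2 (tetherin) holds budding virus at the cell surface, and Oasl2 belongs to the oligoadenylate synthetase family. H2-D1 and H2-K1 are the heavy chains of classical MHC class I, which present peptides to CD8 T cells, and B2m is the light chain they share. In brain much of their expression comes from microglia, endothelial cells and other non-neuronal cells.

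Library totals lay between 10020784 and 15078812 counts in brainstem and between 11945971 and 17328447 in hippocampus. Markers of hippocampal neurons summed to a median of 767 counts relative to the library total (CPM) in hippocampus against 80.7 CPM in brainstem, and markers of hindbrain to 460 CPM in brainstem against 0.0751 CPM in hippocampus, where 4 of the 8 were at 0 in all libraries. All levels below are CPM scaled with TMM factors over the 47 libraries, and ± gives the SD. In bulk tissue fewer cells of a type and less RNA per cell cannot be told apart.

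The letters that interferon-regulated factors read are shown first. The element was searched on either strand in the 250 bases before the start of transcription, as GAAANNGAAA and as the shorter GAANNGAAA, which can overlap each other. Promoter sequences are those of RefSeq on the mouse build GRCm38.p6, where all 9 genes had an entry. Of all 32851 promoters, 2.98% held the first form, 6.31% the second and 8.82% either. One form or the other was found before 7 of the 9 genes. Irf7 and Oasl2 had neither within that window. In the following windows, printed from 5′ to 3′ along the gene, capitals mark the bases of each match, and 15 bases are given on each side.
Ifit1, chr19:34640770-34640828, plus strand: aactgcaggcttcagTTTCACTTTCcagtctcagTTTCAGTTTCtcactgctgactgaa
Ifit3, chr19:34583358-34583431, plus strand: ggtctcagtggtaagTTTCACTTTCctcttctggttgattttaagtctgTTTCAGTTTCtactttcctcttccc
Isg15, chr4:156200860-156200961, minus strand: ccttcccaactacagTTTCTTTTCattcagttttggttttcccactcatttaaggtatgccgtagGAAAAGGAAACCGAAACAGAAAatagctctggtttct
Bst2, chr8:71537572-71537617, minus strand: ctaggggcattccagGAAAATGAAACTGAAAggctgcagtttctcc
B2m, chr2:122147533-122147572, plus strand: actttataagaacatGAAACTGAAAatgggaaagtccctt
H2-D1, chr17:35262929-35262967, plus strand: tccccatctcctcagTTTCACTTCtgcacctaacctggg
H2-K1, chr17:34000414-34000452, minus strand: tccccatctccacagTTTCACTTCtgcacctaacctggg

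Isg15 had 3 matches of the longer form, each overlapping the next, and 1 of the shorter. Ifit1, Ifit3 and Bst2 had 2 of the longer form each and B2m had 1, while H2-D1 and H2-K1 had 1 match each of the shorter form. The last capital letter lies 76 bases before the start for Ifit1, 113 for Ifit3, 57 for Isg15, 115 for Bst2, 130 for B2m and 142 for H2-D1. RefSeq gives 2 starts for H2-K1, and the match ends 82 bases before one and 96 before the other. The upstream sequences of H2-K1 and H2-D1 shared an unbroken run of 47 bases. These matches describe the sequence only and say nothing of whether a factor was bound in these tissues.

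Sequence likeness limits some of the counts. Of the stretches of 75 bases (the read length) in Ifit3 transcripts, 41.1% also occur in Ifit3b, a neighbouring gene of the same family, so reads of these genes can be split between them and Ifit3 values are uncertain to that extent. The share was 5.19% for Ifit1 (with Ifit1bl2), 5.56% for H2-D1 and 3.10% for H2-K1 (with other class I heavy chains). For Irf7, Isg15, Bst2, Oasl2 and B2m it was 0.

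Per kilobase of exon, B2m was the most abundant of the 9 genes in both regions, with a median of 144 CPM per kilobase in brainstem and 83.6 in hippocampus. It was above H2-D1 in each of 23 brainstem libraries (32.6 CPM per kilobase) and each of 24 hippocampus libraries (11.7). In brainstem, Ifit3 (14.7) and H2-K1 (13.6) followed, and Ifit3 was the higher of these in 18 of 23 libraries. Bst2 (3.85), Isg15 (3.07) and Ifit1 (2.86) had overlapping ranges, with Bst2 above Isg15 in 15 of 23 libraries and Isg15 above Ifit1 in 13. Oasl2 (1.64) and Irf7 (1.06) were lowest. In hippocampus, H2-K1 (7.47) exceeded Ifit3 (6.24) in 21 of 24 libraries, followed by Bst2 (2.57), Isg15 (1.38) and Ifit1 (0.873). Irf7 (0.484) and Oasl2 (0.465) closed the order with no separation, each above the other in 12 of 24 libraries. Isg15 in hippocampus rested on 4 to 29 counts per library, the fewest of any of the 9.

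One brainstem library stood apart from the rest. In TG_HFD, the library numbered 8 in its title had the highest level of the whole region for 9 of 9 genes, at 1.66 to 2.49 times the median of the other 5 libraries of its group. Ifit1 was at 16.5 CPM there against a median of 7.62, Ifit3 at 55.2 against 26.5, Irf7 at 9.24 against 3.71 and H2-D1 at 132 against 78.7. B2m was at 198 CPM against 119. The 16 microglia markers also summed highest of the region in that library, at 607 CPM, where the median of brainstem was 428. The lowest microglia sum of the region, 338 CPM, came from TG_HFD library 3, which was also lowest of its group for 6 of the 9 genes. Several of the counts and medians that rest on TG_HFD in brainstem are given with and without library 8. For contrasts within brainstem this was done only without surrogate variables.

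**Figure D1:**
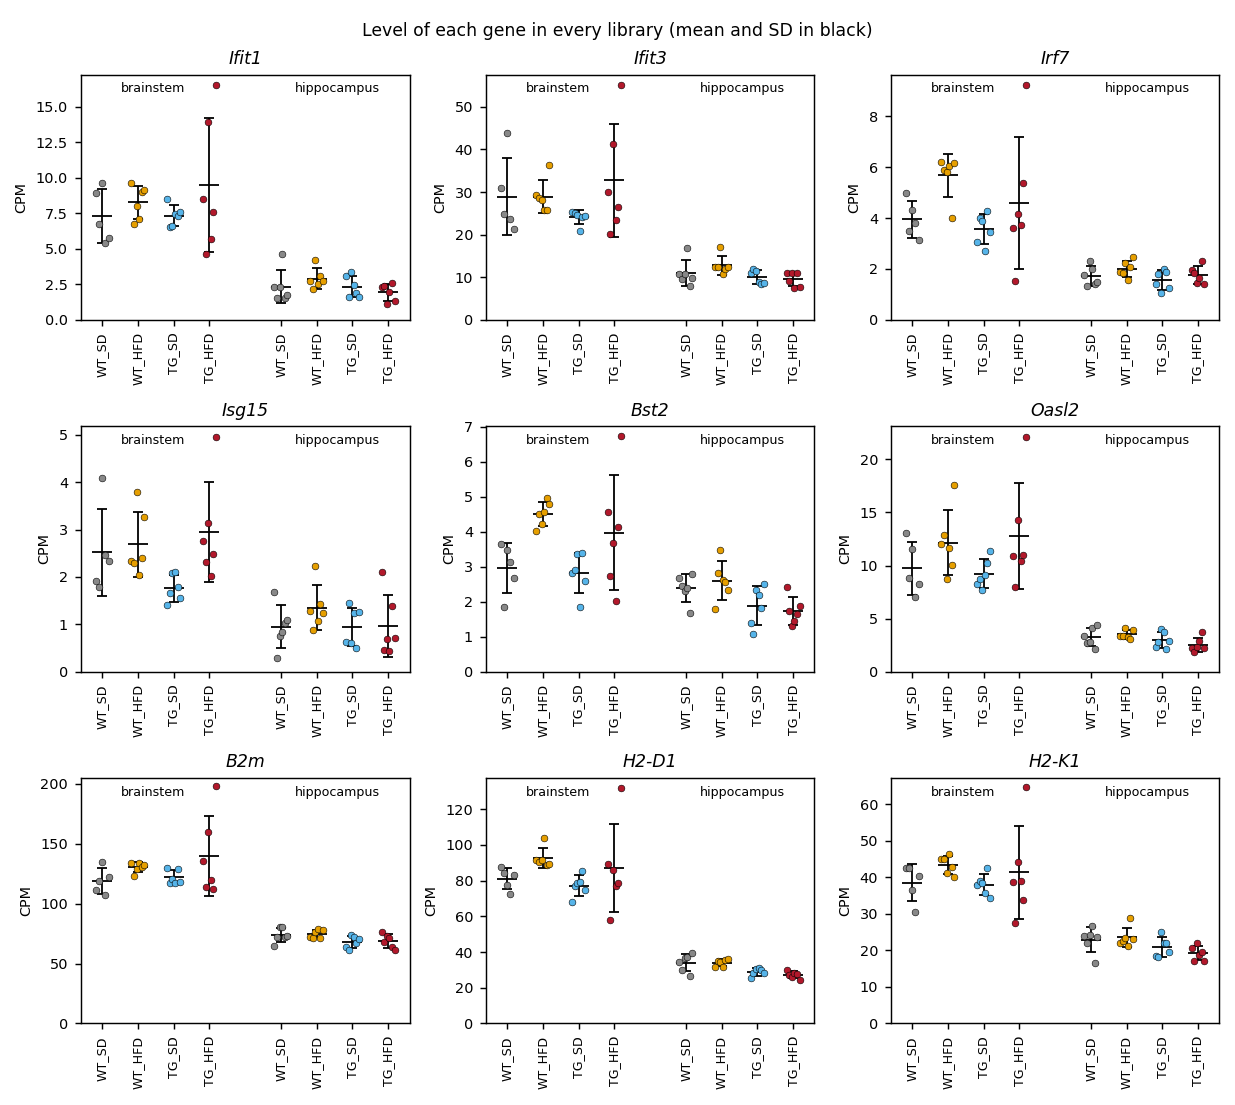
Level of each of the 9 genes in CPM (y axis, from 0) in every library, by group, with brainstem on the left and hippocampus on the right of each panel. Points are libraries and black lines the mean and SD. The brainstem libraries of Ifit1, Ifit3, Oasl2, B2m and H2-D1 all lie above the hippocampus libraries, and 1 TG_HFD library of brainstem is the highest in every panel.

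The comparison that separated these genes most was that of the regions. All 9 genes were lower in hippocampus than in brainstem, by a log2 difference between 0.72 for Bst2 and 1.83 for Oasl2, in a model of all 8 groups. Each was called by edgeR's quasi-likelihood test (adjusted p no higher than 0.05, and a log2 fold change of 0.3 or more up or down), but calls were common here. Of 17129 genes tested, 62.7% were called and 32.7% were called lower in hippocampus. The median log2 fold change of the 9 genes was -1.31, where that of all genes was -0.03. Without brainstem TG_HFD library 8 the median of the 9 genes was -1.23. Libraries of the regions did not overlap for 5 of the 9 genes, a pattern that 15% of all tested genes showed in this direction.

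Irf7 lay between 1.52 and 9.24 CPM in brainstem (median 4.01) and between 1.06 and 2.46 CPM in hippocampus (median 1.83). The ranges overlapped, with 16 hippocampus libraries above the lowest brainstem library, and brainstem was 2.48-fold higher (log2 fold change of hippocampus over brainstem -1.31, SE 0.114). Brainstem libraries held 4.65 to 16.5 CPM of Ifit1 (median 7.60), and hippocampus libraries 1.12 to 4.61 CPM (median 2.32). No library of one region reached the other, though the gap at its narrowest was small, and the fold was 3.39 (-1.76, SE 0.126). Ifit3 was at 20.1 to 55.2 CPM in brainstem (median 25.7) and 7.46 to 17.2 CPM in hippocampus (median 10.9), a fold of 2.64 without overlap (-1.40, SE 0.0901). Oasl2 had the widest separation in fold, 3.55 (-1.83, SE 0.102), with 7.06 to 22.1 CPM (median 10.4) in brainstem libraries against 1.85 to 4.44 CPM (median 2.97) in those of hippocampus. Isg15 was at 1.41 to 4.95 CPM against 0.296 to 2.24 CPM, with 5 hippocampus libraries inside the brainstem range and a fold of 2.36 (-1.24, SE 0.153). Bst2 differed least, at 1.84 to 6.73 CPM against 1.08 to 3.47 CPM, with 15 hippocampus libraries inside the brainstem range and a fold of 1.65 (-0.72, SE 0.104).

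The MHC class I genes differed in the same direction. B2m was at 108 to 198 CPM in brainstem and 61.3 to 80.8 CPM in hippocampus, a fold of 1.79 (-0.84, SE 0.0422). H2-D1 was at 58.1 to 132 CPM against 24.3 to 39.2 CPM, a fold of 2.72 (-1.45, SE 0.0512). Neither gene had overlapping libraries. H2-K1 was at 27.6 to 64.8 CPM against 16.7 to 28.9 CPM, with 1 hippocampus library inside the brainstem range and a fold of 1.87 (-0.90, SE 0.0597). The 95% confidence intervals of B2m (-0.92 to -0.75) and H2-K1 (-1.02 to -0.78) overlapped, and H2-D1 had the largest fold of these 3 genes. With any 1 of the 47 libraries left out, each of the 9 genes was still called.

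**Figure D2:**
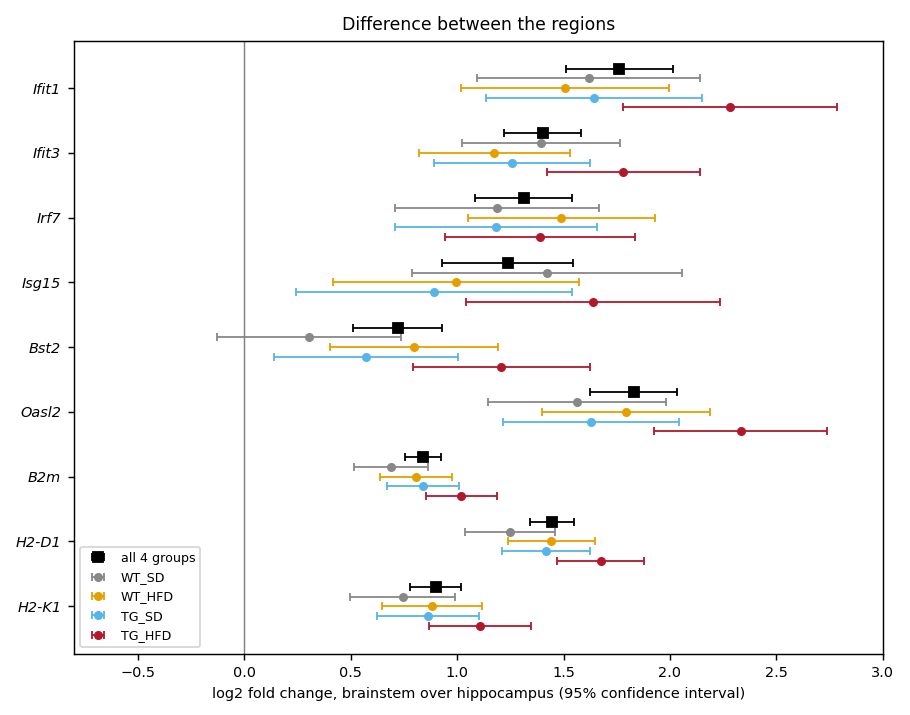
Log2 fold change of brainstem over hippocampus for each gene (x axis), with 95% confidence intervals, from the model of all 8 groups (black squares) and within each of the 4 groups (coloured circles). Every point lies above 0, and the interval of Bst2 in WT_SD is the only one that includes it.

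Within the single groups, 9 of 9 genes were called lower in hippocampus in TG_SD (31.4% of all genes), in TG_HFD (30.4%) and in WT_HFD (31.7%), and 8 of 9 in WT_SD (30.5%). The exception was Bst2 in WT_SD, with a log2 fold change of -0.31 (SE 0.215) and an adjusted p of 0.205. The median of the 9 genes was -1.25 in WT_SD, -1.17 in WT_HFD, -1.18 in TG_SD and -1.64 in TG_HFD. For Oasl2 the fold was 2.96 in WT_SD, 3.46 in WT_HFD, 3.09 in TG_SD and 5.04 in TG_HFD. For H2-D1 it was 2.38, 2.72, 2.67 and 3.19 in the same order. Without brainstem library 8 the median in TG_HFD was -1.41, the 9 genes were still called lower, and the values of Oasl2 and H2-D1 were -2.10 and -1.51 on the log2 scale.

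Other genes of the pathway came from 8 lists of its steps and 1 of MHC class II. Their counts stand beside 62.7% of all genes called and 32.7% called lower, and lists were not tested against each other. Of 41 further interferon-stimulated genes tested, 36 were called lower in hippocampus and 1 higher (median -0.98), and of 13 further MHC class I heavy chains 13 were called lower (median -1.38). MHC class II genes were called lower for 5 of 6 and higher for 1. For genes that process and load peptides the calls were 7 lower and 1 higher of 13. Upstream lists had calls in both directions, with 2 lower and 4 higher of 9 JAK-STAT and IRF genes, 6 lower and 2 higher of 12 nucleic acid sensors and adaptors, and 1 lower and 1 higher of 4 receptors and ligands. Negative regulators were called lower for 1 and higher for 3 of 4, and transactivators of MHC class I genes lower for 3 and higher for 2 of 8. Irf9, a transcription factor of the response, differed by -0.85 on the log2 scale (SE 0.0705), Nlrc5, which switches on MHC class I genes, by -1.43 (SE 0.135) and the immunoproteasome subunit Psmb8 by -0.48 (SE 0.108). Tap1, a subunit of the peptide transporter, was not called, at -0.11 (SE 0.0809) with an adjusted p of 0.183.

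Markers of several cell types differed between the regions as well. Of 16 microglia markers 8 were called higher and 1 lower in hippocampus, with sums of 338 to 607 CPM in brainstem (median 428) against 438 to 569 CPM in hippocampus (median 493.2). Their most abundant gene, Csf1r, had a median of 60.1 CPM in brainstem and 86.4 CPM in hippocampus. Of 11 endothelial markers 10 were called lower in hippocampus, with sums of 462 to 574 CPM against 247 to 351 CPM and Flt1 as the most abundant gene (medians 101.6 and 62.8 CPM). Of 7 oligodendrocyte markers 7 were called lower, with median sums of 16941 and 4005 CPM. The 5 blood cell markers summed to 595 to 3303 CPM against 170 to 575 CPM, with 5 called lower. Markers of perivascular macrophages (median sums 7.71 and 5.71 CPM) and of T cells and neutrophils (5.76 and 1.23 CPM) were low in both regions, and none of these lists was at 0 in any library. The part of these cell types in the difference between regions was not tested.

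**Figure D3:**
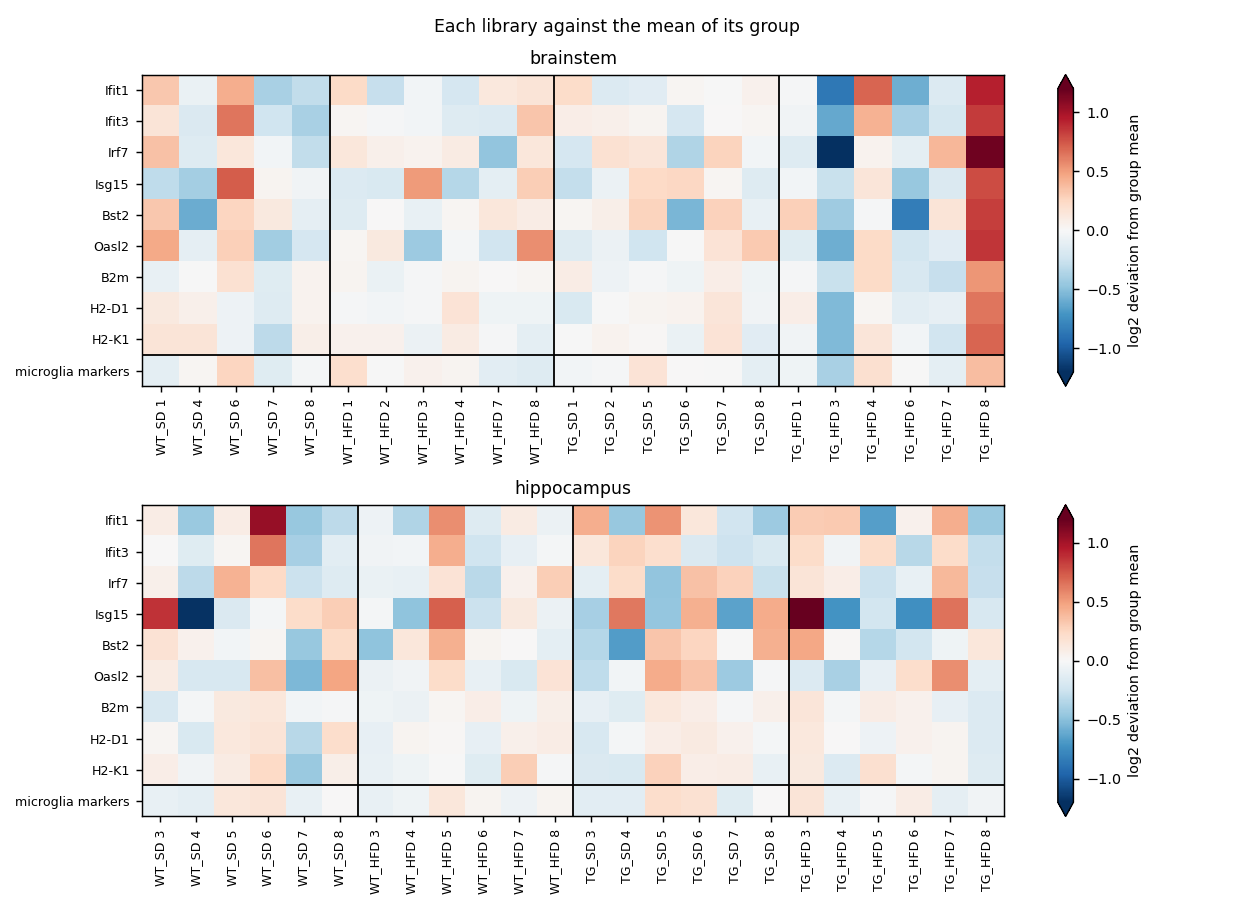
Log2 deviation of each gene from the mean of its group (colour, red above and blue below, with the scale ending at 1.2 in either direction) in each library (columns, group and number), in brainstem (top) and hippocampus (bottom). The last row of each panel is the mean deviation of the 16 microglia markers. Brainstem TG_HFD library 8 is red throughout and TG_HFD library 3 blue throughout.

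Within the groups, the levels of the 9 genes varied together from library to library. Over 23 brainstem libraries the Pearson correlation of deviations from the group mean had a median of 0.65 among the 6 interferon response genes (0.40 to 0.89 over 15 pairs), 0.80 among the 3 MHC class I genes and 0.64 between the sets. Without TG_HFD library 8 these medians were 0.49, 0.63 and 0.44. Over 24 hippocampus libraries they were 0.34, 0.41 and 0.35, and pairs of interferon response genes ran from -0.02 to 0.62. The mean deviation of microglia markers correlated with that of the interferon response genes at 0.69 in brainstem (0.55 without library 8) and 0.53 in hippocampus. For the MHC class I genes it was 0.78 (0.70 without library 8) and 0.68. All these values share libraries and depth and are given as a description.

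Among the 13340 brainstem genes whose mean count was 50 or more, those most like the mean of the interferon response genes were Ifit3 (0.95), its neighbour Ifit3b (0.91), Ifit1 (0.89), Lgals3bp (0.87), Irf7 (0.84), Oasl2 (0.83), B2m (0.80), Sh3bp2 (0.79), Ddx58 (0.78), which encodes the RNA sensor RIG-I, and Cd68 (0.78), a lysosomal protein of macrophages. Without TG_HFD library 8, Gm7287 (0.67) and Nagk (0.66) took the places of B2m and Cd68. The 6 and 3 genes are part of the means they are compared with here, which raises their own places. Most like the MHC class I genes were H2-K1 (0.97), H2-D1 (0.95), C1qa (0.89), B2m (0.89) and C1qc (0.87), of which C1qa and C1qc encode complement C1q and are microglia markers. Without library 8 that list held H2-K1 (0.95), H2-D1 (0.896), C1qa (0.83), C1qc (0.795) and Pld4 (0.78), and no longer B2m. In hippocampus 13272 genes met the same count limit. Ifit1, Irf7, Isg15, Bst2 and Oasl2 did not meet it there and could not be listed, and neither could Isg15 and Bst2 in brainstem. The order for the interferon response genes in hippocampus was Wbp1 (0.72), Ifit3b (0.71), Lgals3bp (0.69), Ifit3 (0.68), 2900052N01Rik (0.67), Tspan4 (0.66), Gnpda2 (0.66), Pnpla7 (0.65), Yap1 (0.65) and Ednrb (0.65). For MHC class I it was H2-K1 (0.91), H2-D1 (0.88), Lgals3bp (0.82), Cinp (0.79) and Pigv (0.75). Ifit3b and Lgals3bp thus stood in the list of the interferon response genes in both regions. Ifit3 is part of that mean, and 41.1% of its stretches of 75 bases occur in Ifit3b. The place of Ifit3b may therefore not be independent of Ifit3.

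The effect of the genotype was read within each region and diet, in a model of the 4 groups with 4 surrogate variables, which are estimated from the counts to take up variation that the groups do not explain. In hippocampus on HFD, Ifit3 fell in TG relative to WT and was the only one of the 9 genes called, where 0.262% of all genes were. Its WT_HFD libraries lay between 10.7 and 17.2 CPM (median 12.4) and its TG_HFD libraries between 7.46 and 11.01 CPM, so that the groups overlapped and the highest WT_HFD library, number 5, was well above the others. The log2 fold change was -0.73 with an SE of 0.166 (adjusted p of 0.0378). Without surrogate variables it was -0.42 with an adjusted p of 0.0900, and the call was not made. Without WT_SD library 6, which is in neither group but enters the estimate of the surrogate variables, it was -0.43 with an adjusted p of 0.463. Over the 24 fits that each left out 1 library, the call was kept in 15 and lost in 9. In 8 of those 9 fits the log2 fold change was between -0.62 and -0.72, and the other was the fit without WT_SD library 6. DESeq2 with the same surrogate variables did not make it.

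The other 8 genes in that contrast were also lower in TG_HFD, none past the threshold. Ifit1 lay between 2.17 and 4.24 CPM in WT_HFD (median 2.71) and between 1.12 and 2.58 CPM in TG_HFD (median 2.14), with overlap. Its log2 fold change was -1.02 with an SE of 0.279 (adjusted p of 0.113), and -0.57 without surrogate variables. H2-D1 lay between 31.7 and 36.1 CPM in WT_HFD and between 24.3 and 29.7 CPM in TG_HFD. It was the only one of the 9 genes whose groups did not overlap here, as 2.85% of all genes did in the same direction. Its log2 fold change was -0.28 with an SE of 0.0841 (adjusted p of 0.152). Without surrogate variables it was -0.32 with an adjusted p of 0.0132, which made H2-D1 the 1 gene of the 9 called in that fit, where 3.17% of all genes were called. Without TG_HFD library 8 of hippocampus that call was not made. H2-D1 was also called with 1 surrogate variable (-0.32, adjusted p 0.00426), by DESeq2 with 0 (-0.32, adjusted p 0.00434) and in a model of only the 2 groups (-0.31, adjusted p 0.00214). Apart from the 24 fits with 4 surrogate variables and 1 library left out, 6 of 16 alternatives called H2-D1, and 0 of those 24 did. B2m lay between 71.0 and 78.8 CPM against 61.3 and 76.2 CPM (-0.19, SE 0.0544, adjusted p 0.124), and Oasl2 between 3.05 and 4.09 CPM against 1.85 and 3.71 CPM (-0.44, SE 0.206). Irf7, Isg15, Bst2 and H2-K1 had values of -0.21, -0.23, -0.33 and -0.20. Without surrogate variables Isg15 was at -0.51, H2-K1 at -0.29 and Bst2 at -0.59 (adjusted p 0.0689). Bst2 was called with 1 surrogate variable (-0.58, adjusted p 0.0394) and by DESeq2 with 0 (-0.59, adjusted p 0.0472). Apart from edgeR with 0 surrogate variables, the share of all genes called in these alternative fits is not given here. With 4 surrogate variables, 5 of the 9 genes reached an unadjusted p of 0.05 or less in the lower direction, against 6.1% of all genes. The median was -0.28, where that of all genes was -0.00. Without surrogate variables 6 of 9 genes reached that p and the median was -0.42. The 6.1% does not apply to that fit, where 3.17% of all genes were called, against 0.262% with surrogate variables.

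On SD, none of the 9 hippocampus genes was called between TG and WT, where 0.0715% of all genes were. H2-D1 had the lowest p, with overlapping WT_SD libraries between 26.7 and 39.2 CPM (median 35.6) and TG_SD libraries between 25.2 and 31.1 CPM (median 29.1). Its log2 fold change of -0.29 (SE 0.0670) had an adjusted p of 0.0713 and was also just short of the fold threshold. It was called in 3 of the 24 fits with 1 library left out. B2m (-0.16, SE 0.0438), H2-K1 (-0.18, SE 0.0844) and Oasl2 (-0.34, SE 0.164) had, with H2-D1, an unadjusted p of 0.05 or less. These were 4 of 9 genes, against 4.26% of all genes in that direction. Without surrogate variables H2-D1 (-0.23) was the 1 gene left of them, Oasl2 was at -0.13, and the median of the 9 genes moved from -0.20 to -0.13. Values were below 0 for 8 of the 9 genes, the exception being Isg15 (0.05, SE 0.408). The intervals of Irf7 (-0.65 to 0.25) and Bst2 (-0.75 to 0.07) leave room for a difference in either direction.

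Markers of other cell types were read beside these values. In hippocampus on HFD, 14 of 16 microglia markers were lower in TG (median -0.11, none called), with sums of 477 to 569 CPM in WT_HFD and 450 to 531 CPM in TG_HFD. Of the endothelial markers 11 of 11 were lower (median -0.17, none called), with sums of 287 to 338 CPM and 247 to 309 CPM. Without surrogate variables the microglia markers Tmem119 (-0.33) and C1qc (-0.37) and the endothelial marker Tie1 (-0.40) were called, as were the meningeal fibroblast marker Col1a1 (-0.62) and the hippocampal neuron markers Neurod2 (-0.37) and Emx1 (-0.61), where 3.17% of all genes were. On SD, 11 of 16 microglia markers (median -0.05) and 11 of 11 endothelial markers (median -0.06) were lower. The part of these cells in the genotype values was not tested.

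In brainstem no gene of the 9 was called between the genotypes, on SD (0.117% of all genes) or on HFD (0.0351%), and none reached an unadjusted p of 0.05 with surrogate variables. DESeq2 with the same surrogate variables called none either. On SD the lowest p was that of Isg15, at -0.49 with a 95% confidence interval of -1.001 to 0.03. Its WT_SD libraries were at 1.92, 1.78, 4.10, 2.47 and 2.33 CPM and its TG_SD libraries between 1.41 and 2.10 CPM, so the groups overlapped. For H2-D1 the values were 0.04 on SD (interval -0.13 to 0.22) and 0.04 on HFD (-0.17 to 0.24). For Ifit3 they were -0.22 on SD (-0.61 to 0.17) and 0.14 on HFD (-0.31 to 0.59). The median of the 9 genes was 0.05 on SD and 0.03 on HFD, with 7 of 9 values above 0 on each diet, but without surrogate variables 2 and 5 of 9 were above 0 and the medians were -0.07 and 0.08. Without surrogate variables and without TG_HFD library 8 the median on HFD was -0.16, and 4 of 9 genes had an unadjusted p of 0.05 or less, where none had with that library. The share of all genes at that p without the library was not determined. Of the cell type markers, the endothelial gene Cldn5 was called here, higher in TG on SD at 0.40 (SE 0.0844, adjusted p 0.0310), and was not called without surrogate variables (0.26).

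**Figure D4:**
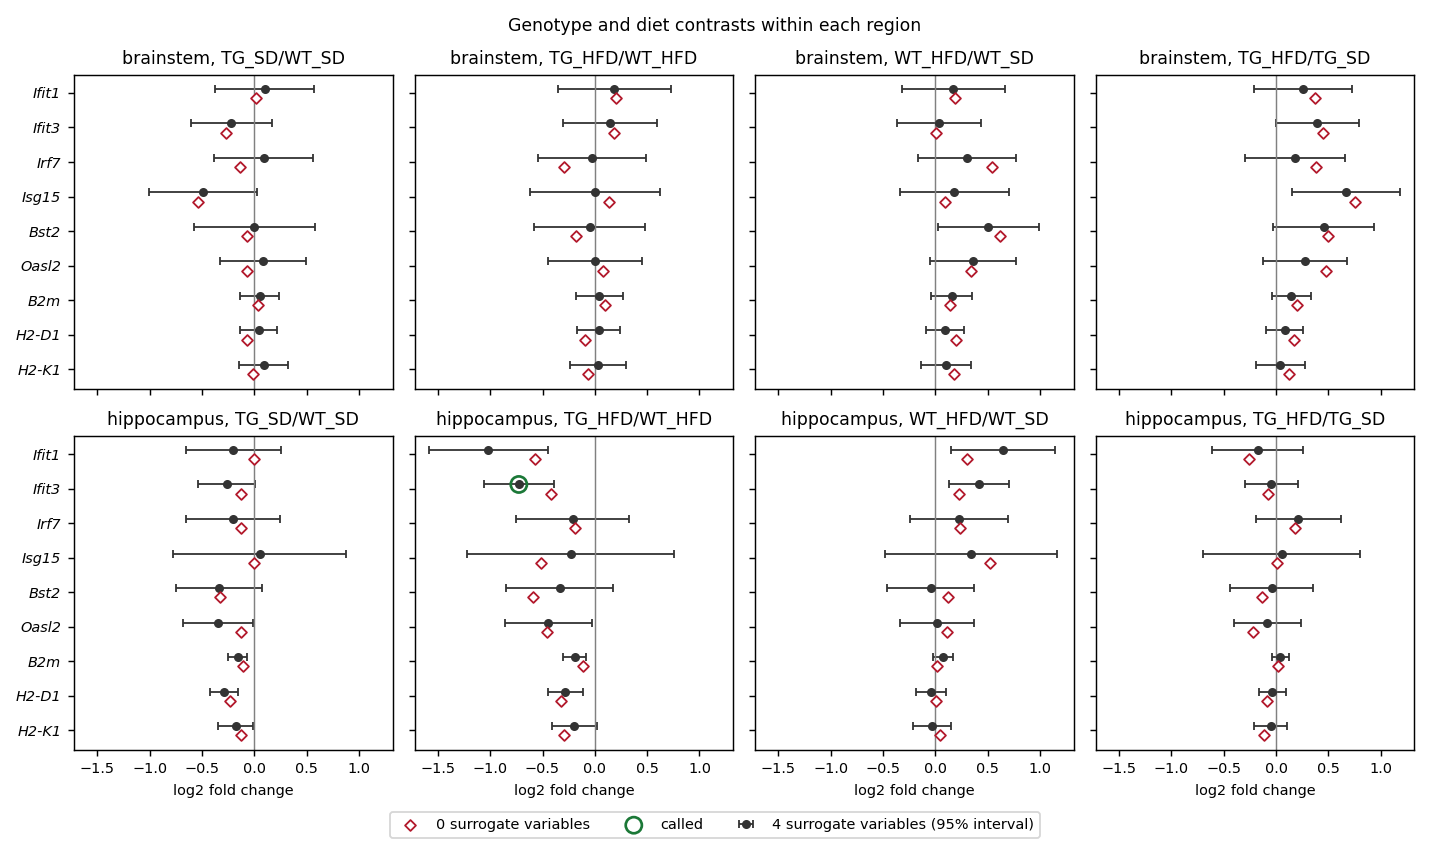
Log2 fold change (x axis) of each gene in the genotype contrasts (left 4 panels) and diet contrasts (right 4 panels) of brainstem (top) and hippocampus (bottom). Filled circles give the model with 4 surrogate variables and its 95% confidence interval, diamonds the model with 0, and a green ring a call. Ifit3 in hippocampus on HFD carries the only ring, and brainstem diet values all lie at or above 0.

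The diet effect was not called for any of the 9 genes in either genotype or region, by edgeR or by DESeq2 with the same surrogate variables. In brainstem of WT mice, where 0% of all genes were called, the 9 values were above 0 with a median of 0.17. Bst2 was at 3.65, 1.86, 3.47, 3.13 and 2.67 CPM on SD and between 4.02 and 4.96 CPM on HFD. H2-D1 was at 87.7, 84.1, 77.4, 72.5 and 83.3 CPM on SD and between 89.0 and 103.7 CPM on HFD. Each HFD library of these genes was above each SD library, which held for 0.281% of all genes in that direction. Bst2 had a log2 fold change of 0.51 with an SE of 0.237 (adjusted p of 0.952) and was the 1 gene of the 9 with an unadjusted p of 0.05 or less, against 2.43% of all genes. H2-D1 stood at 0.09 (SE 0.0891), and at 0.20 without surrogate variables. Irf7, at 3.15 to 4.998 CPM on SD and 4.001 to 6.19 CPM on HFD, overlapped between the diets (0.30, SE 0.230). Without surrogate variables Irf7 was at 0.54, and Bst2 (0.61) and Irf7 were the 2 of 9 genes with an unadjusted p of 0.05 or less. The 2.43% does not apply to that fit, and its own share of all genes is not given here. The median of the 9 genes was 0.19 in that fit, and 0.32 when WT_SD library 6 was also left out.

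In brainstem of TG mice, where 0.00585% of all genes were called, the 9 values were again above 0 (median 0.26). Isg15 ran from 1.41 to 2.10 CPM on SD and from 2.02 to 4.95 CPM on HFD, with overlap, and had a log2 fold change of 0.67 with an SE of 0.253 (adjusted p of 0.633). It was the 1 gene of the 9 with an unadjusted p of 0.05 or less, against 3.5% of all genes. Ifit3 ran from 20.8 to 25.3 CPM and from 20.1 to 55.2 CPM (0.39, SE 0.194), so that the HFD group spanned the whole SD range. Without surrogate variables Ifit3, Isg15, Bst2, Oasl2 and B2m reached an unadjusted p of 0.05 or less, which is 5 of 9 against 3.12% of all genes, and the median was 0.38. When TG_HFD library 8 was also left out, 1 of 9 did and the median was 0.13, with no share of all genes determined for that fit. The diet values of the microglia markers in brainstem had medians of 0.07 in WT and 0.06 in TG.

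In hippocampus of WT mice, where 0.0298% of all genes were called, Ifit1 and Ifit3 were higher on HFD at an unadjusted p of 0.05 or less, 2 of 9 against 3.78% of all genes. Ifit1 was at 1.53 to 4.61 CPM on SD (median 2.005) and 2.17 to 4.24 CPM on HFD (median 2.71), with a log2 fold change of 0.64 with an SE of 0.243 (adjusted p of 0.690). Ifit3 was at 8.04 to 16.7 CPM and 10.7 to 17.2 CPM (0.42, SE 0.142, adjusted p 0.640). Without surrogate variables 0 of 9 genes reached that p, with Ifit1 at 0.30 and Ifit3 at 0.22. The groups overlapped for both genes, and 1 WT_SD library, number 6, held the top of the SD range for both. That library also had the highest sum of blood cell markers in hippocampus (575 CPM), as the WT_SD library numbered 6 had in brainstem (3303 CPM), where Ifit3 was at 43.8 CPM, the highest of its group. The part of blood in these levels was not tested, and title numbers were not taken to pair libraries. Over 17 pairs with the same group and number in both regions, mean deviations correlated at -0.10 (interferon response genes) and -0.26 (MHC class I genes). In TG mice, where 0% of all genes were called, 0 of the 9 genes had an unadjusted p of 0.05 or less, the median over them was -0.04, and intervals were narrow for B2m (-0.04 to 0.12) and H2-D1 (-0.16 to 0.09).

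Whether the diet acted differently in TG and WT mice was tested as an interaction. None of the 9 genes was called in brainstem or in hippocampus, and 0% of all genes were in either region (edgeR, and also 0 of the 9 genes by DESeq2). At an unadjusted p of 0.05 or less there were 0 of the 9 genes in brainstem. In hippocampus Ifit1 (-0.82, SE 0.331, adjusted p 0.722) and Ifit3 (-0.46, SE 0.193, adjusted p 0.753) had an unadjusted p of 0.05 or less in the lower direction, as 3.36% of all genes did. Without surrogate variables they were at -0.56 and -0.30, and 0 of 9 genes reached that p. The value of H2-D1 was 0.01 with an interval of -0.19 to 0.20. In brainstem the widest intervals were those of Isg15 (-0.28 to 1.25) and Bst2 (-0.76 to 0.67). The median there was -0.01, or 0.06 without surrogate variables and -0.09 when TG_HFD library 8 was also left out, where 0 of 9 genes reached an unadjusted p of 0.05.

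The genotype and diet effects were then compared between the regions, in the model of all 8 groups without surrogate variables. For TG against WT on HFD, 0 of 9 genes were called as differing, where 0.00584% of all genes were. Ifit1 (hippocampus minus brainstem -0.78, SE 0.354) and Ifit3 (-0.61, SE 0.251) had an unadjusted p of 0.0336 and 0.0195, which made 2 of 9 genes against 2.96% of all genes in that direction. For HFD against SD in TG mice, 0 of 9 genes were called and 0% of all genes, while Ifit3 (-0.52, SE 0.255), Bst2 (-0.64, SE 0.2999) and Oasl2 (-0.70, SE 0.293) had an unadjusted p of 0.05 or less, 3 of 9 against 1.7% of all genes. The smallest adjusted p among the 9 genes was 0.884 in the genotype contrast and 1.0 in the diet contrast. When brainstem TG_HFD library 8 was left out, 0 of 9 genes had an unadjusted p of 0.05 or less in either contrast. Ifit1 and Ifit3 then stood at -0.53 (SE 0.335) and -0.39 (SE 0.226) between the genotypes on HFD, and Ifit3, Bst2 and Oasl2 at -0.30, -0.40 and -0.47 between the diets in TG mice. Which brainstem and hippocampus libraries came from the same mouse is not in the labels, so the model treats them as independent.

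Of the other genes of the pathway, 113 were tested in brainstem and 98 in hippocampus of 127 listed. None was called in brainstem, and at an unadjusted p of 0.05 or less no contrast there held more than 3 in either direction. In hippocampus the 1 call was Ifit3b, the near copy of Ifit3, which fell in TG on HFD (log2 fold change -0.80, SE 0.185, adjusted p 0.0381, and -0.41 without surrogate variables, not called). Its libraries lay between 9.22 and 14.1 CPM in WT_HFD and between 6.03 and 10.6 CPM in TG_HFD. How reads common to Ifit3b and Ifit3 were counted is not given, so these may not be separate observations. On SD, 73 of the 98 genes had values below 0 between TG and WT, 14 of them and none of the higher ones at an unadjusted p of 0.05 or less, against 4.26% of all genes lower. On HFD 64 of 98 were below 0, 13 lower and 1 higher at that p, against 6.1% of all genes lower. For further interferon-stimulated genes the median was -0.17 on SD and -0.16 on HFD (29 and 27 of 33 below 0), and for peptide processing genes -0.03 and -0.08. Further MHC class I heavy chains were below 0 in 9 of 11 on SD and in 5 of 11 on HFD. Irf9 (-0.24 on SD, -0.08 on HFD), Tap1 (-0.22, -0.20) and Psmb8 (-0.22, -0.50) were not called, and Nlrc5 was below the filter on low counts in hippocampus.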

How the data were processed

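Poly(A) RNA of 23 brainstem and 24 hippocampus libraries was sequenced by the authors as single-end reads of 75 bases. They checked reads with FastQC 0.11.9, aligned them with STAR 2.7.9a to the Ensembl v104 mouse genome with the human transgene added, and deposited unnormalized read counts per gene. The rule by which reads were counted to genes is not given in the sources used here, which affects genes with near copies. Identifiers were matched to symbols of a GENCODE annotation of GRCm38 (all but 528 in brainstem and 455 in hippocampus), so no coordinates of the deposited counts are given. Members and lists were chosen with earlier results of these data known.

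A gene was tested where its mean count over a region's libraries was 10 or more, with edgeR 4.0.16 (R 4.3.3, limma 3.58.1): TMM normalization, quasi-likelihood test, the 4 groups of a region in 1 model with 4 surrogate variables (sva 3.50.0, number by 20 permutations). The regions were compared in 1 model of 8 groups without surrogate variables. P values were adjusted by Benjamini-Hochberg over all tested genes, and a call needed an adjusted p no higher than 0.05 with a log2 fold change of 0.3 or more up or down. Intervals are at 95%, from the t quantile of edgeR's degrees of freedom. Log2 CPM used a prior count of 2. Within a region the study's groups held separate mice, so p values there cover the spread between mice. The study randomized diets within litters and housed mice in groups. Neither litter nor cage is in the model. The study took both regions from the animals of each group. Libraries of the regions can thus share mice, which the model of 8 groups does not take into account. Named genes were all 9 members, listed pathway genes called within a region, Irf9, Tap1, Psmb8 and Nlrc5, the 10 and 5 genes most like the 2 sets of members in each region, and the most abundant gene of a marker list. Marker genes called only without surrogate variables, and the libraries set apart, were named after their values were seen. The level of the transgene and 1 pathway gene that the rule names are not reported here. The fit was tested on simulated counts. Alternatives were DESeq2 1.42.0, RLE size factors, other filters, 0 to 3 surrogate variables, only the groups compared, the title number as a block, and each library left out. Fits without TG_HFD library 8 or WT_SD library 6 of a region, and without surrogate variables, were added after seeing the data. Lists were described by counts and medians, using Python 3.11.15 with numpy 2.4.6, pandas 2.3.3 and matplotlib 3.10.9.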

Additional observations from a re-analysis of the deposited data

Results flagged for a closer look

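In 8 of 72 groups of libraries, 1 library lay far from the nearest other by Dixon's criterion, which chance gives in about 1 of 20 groups. In hippocampus WT_SD, library 6 was the highest for Ifit1 (4.61 CPM, the next at 2.30) and for Ifit3 (16.7 CPM, the next at 10.9). In hippocampus WT_HFD, library 5 was the highest for Ifit3 (17.2 CPM, the next at 12.5) and library 7 for H2-K1 (28.9 CPM, the next at 23.4). In brainstem WT_HFD, library 8 was the highest for Ifit3 (36.3 CPM, the next at 29.2), library 4 the highest for H2-D1 (103.7 CPM, the next at 91.6) and library 7 the lowest for Irf7 (4.001 CPM, the next at 5.81). In brainstem TG_SD, library 6 was the lowest for Ifit3 (20.8 CPM, the next at 24.1). Brainstem TG_HFD library 8 was not among them, since the other libraries of its group were also widely spread.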

How the results depend on the processing

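The difference between the regions kept its direction for 9 of 9 genes under every alternative run. Within the regions, 50 of 90 gene values kept their sign under every alternative, leave-one-out fits with 4 surrogate variables not counted. Among them were 15 of 18 genotype values in hippocampus and 15 of 18 diet values in brainstem. Some of the 50 changed sign with 1 library left out. The diet value of Irf7 in brainstem of TG mice kept its sign in 22 of 23 such fits. For hippocampus TG_HFD against WT_HFD, where 1 gene was called, DESeq2 with the same surrogate variables called 0, and 0, 1, 2 and 3 surrogate variables called 1, 2, 0 and 1. DESeq2 with 0 surrogate variables called 2, a model of only the 2 groups compared 2, and models without surrogate variables 0 without TG_HFD library 8 and 2 without WT_SD library 6. With 1 library left out the number was 0 to 1. Adjusted p of Ifit3 there was 0.0804, 0.0520 and 0.0515 without TG_SD 3, 6 and 7, 0.119 and 0.127 without TG_HFD 6 and 8, 0.463 and 0.0582 without WT_SD 6 and 8, and 0.0545 and 0.0631 without WT_HFD 4 and 5. For TG_SD against WT_SD in hippocampus, where 0 were called, H2-D1 was called with no filter on low counts (1 gene), and with 1 library left out the number was 0 to 1 (without TG_HFD 3, WT_SD 7 or WT_HFD 6, adjusted p 0.0301, 0.0163 and 0.0487). Over all genes, 44 calls between TG_HFD and WT_HFD in hippocampus became 532 with 0 surrogate variables. The cause of that rise was not tested. For the other fits the number of calls over all genes is not given here. Title numbers were not taken to pair libraries, since the labels do not say that they do. The correlation of libraries with the same number ran from -0.31 to 0.40 in brainstem and from -0.15 to 0.41 in hippocampus. Its mean was 0.043 and 0.11, against -0.01 and -0.02 for other pairs, and 3 of 22 and 9 of 24 correlated best with their own number. These values do not settle whether the numbers mark a shared block. With the number as a replicate block, 2 genes (Ifit1 and Ifit3) were called in TG_HFD against WT_HFD and 1 (H2-D1) in TG_SD against WT_SD in hippocampus. With the filter at a mean count of 50, Irf7, Isg15 and Bst2 were not tested between regions. Counts in hippocampus were lowest for Isg15, Irf7, Ifit1 and Bst2, with medians of 13.5 to 32 per library.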
